A study of Rattus norvegicus with 74 samples.

Results

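Messenger RNA of 10 neuromuscular junction genes was followed across 74 total-RNA libraries from male, wild-type Wistar Kyoto rats. The genes were taken by symbol: the muscle acetylcholine receptor subunits Chrna1, Chrnb1, Chrnd and Chrne, the receptor-anchoring protein Rapsn, the agrin receptor Lrp4 with the kinase Musk and its adaptor Dok7, and the acetylcholine-splitting enzyme Ache with its collagen tail Colq. All 10 were found in each of the count tables, which list 30560 genes, 24042 of them with a symbol. The fetal receptor subunit Chrng was not matched by symbol and is not analysed here.

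The rats were 9 weeks old when killed, and all drank water with 8% deuterium oxide. Trained rats (ExT) began treadmill running when 5 weeks old and kept it up for 4 weeks, with 5 sessions weekly of up to 60 min at 20 m/min, and were sampled 24 h after the last run. Sedentary rats (Sed) spent the same time on a treadmill standing still. Whole red gastrocnemius (SM) and mitochondria captured from it with an antibody, then exposed to proteinase-K and RNase-A (MT), came from the same 30 rats, 15 per arm, and left ventricle wall (LV) from 14 of them, 7 per arm. Cages held pairs of rats, and which rats shared one is not given, so that p-values measure the spread between single rats.

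The neuromuscular junction is the synapse through which a motor nerve excites a muscle fibre. The nerve releases acetylcholine, which opens a pentameric receptor packed into the fold crests of the fibre, and acetylcholinesterase held in the cleft by the collagen ColQ ends the signal. Nerve-derived agrin binds Lrp4, which activates Musk; Dok7 enhances that activity and rapsyn clusters the receptors. In adult muscle many of these genes are transcribed mainly by the few nuclei beneath the nerve ending. There, neuregulin signalling and Ets-family factors acting at a promoter element named the N-box are known to favour them. E-boxes, the sites of myogenic factors such as myogenin, serve their transcription along the fibre before innervation or after denervation.

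The promoters of the receptor subunits and Musk are printed because these genes form the 2 patterns of covariation described below. Each runs from 250 bases before to 50 after the RefSeq start on GRCr8, 5′ to 3′ on the coding strand. Capitals mark matches to the E-box CANNTG and the N-box CCGGAA, searched on both strands.
Chrna1 promoter, chr3:78877304-78877603, minus strand: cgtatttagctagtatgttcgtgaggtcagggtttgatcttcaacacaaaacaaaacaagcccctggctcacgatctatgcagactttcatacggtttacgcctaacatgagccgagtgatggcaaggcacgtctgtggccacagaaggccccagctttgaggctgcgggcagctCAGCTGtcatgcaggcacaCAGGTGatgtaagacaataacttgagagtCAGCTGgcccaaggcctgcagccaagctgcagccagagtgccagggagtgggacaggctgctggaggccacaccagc
Chrnb1 promoter, chr10:55015058-55015357, minus strand: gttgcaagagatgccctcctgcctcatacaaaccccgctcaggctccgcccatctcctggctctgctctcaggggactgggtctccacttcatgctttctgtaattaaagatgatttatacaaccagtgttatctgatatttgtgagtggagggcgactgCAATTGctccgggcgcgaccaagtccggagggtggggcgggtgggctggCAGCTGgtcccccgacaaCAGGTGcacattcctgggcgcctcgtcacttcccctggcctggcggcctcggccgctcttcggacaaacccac
Chrnd promoter, chr9:95310066-95310365, plus strand: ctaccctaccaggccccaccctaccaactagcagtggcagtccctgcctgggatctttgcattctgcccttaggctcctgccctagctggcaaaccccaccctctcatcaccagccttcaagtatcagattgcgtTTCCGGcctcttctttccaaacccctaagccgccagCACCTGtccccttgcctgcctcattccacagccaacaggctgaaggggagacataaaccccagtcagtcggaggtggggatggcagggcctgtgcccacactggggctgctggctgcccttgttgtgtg
Chrne promoter, chr10:55834105-55834404, minus strand: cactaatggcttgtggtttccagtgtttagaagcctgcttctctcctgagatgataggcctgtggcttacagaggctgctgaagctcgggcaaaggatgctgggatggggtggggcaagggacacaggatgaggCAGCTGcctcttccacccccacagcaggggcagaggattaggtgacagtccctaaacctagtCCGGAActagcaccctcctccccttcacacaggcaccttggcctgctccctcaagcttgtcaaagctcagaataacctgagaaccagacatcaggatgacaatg
Musk promoter, chr5:77853486-77853785, plus strand: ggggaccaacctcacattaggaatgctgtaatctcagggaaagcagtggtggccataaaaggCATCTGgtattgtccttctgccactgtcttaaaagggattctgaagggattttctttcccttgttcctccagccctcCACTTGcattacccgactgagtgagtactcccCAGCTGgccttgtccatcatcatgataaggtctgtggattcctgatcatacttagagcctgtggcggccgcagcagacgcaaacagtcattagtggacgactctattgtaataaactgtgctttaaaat
RefSeq promoter entries were matched by symbol for 7 of the 10 genes, and Rapsn, Lrp4 and Colq were named only. The N-box letters were present in the Chrnd window, 115 bases before the start and read on the opposite strand, and in the Chrne window, 54 bases before the start. They were in 15.0% of the 33469 promoter windows of the table. Chrna1 had 3 E-box matches at 75, 56 and 27 bases before the start, Chrnb1 had 3 at 90, 41 and 23, and Musk had 3 at 188, 111 and 79. Chrnd had 1, at 79, and Chrne had 1, at 116. An E-box match was present in 72.1% of all windows, and none of these matches overlapped another. A match describes the letters only.

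The tissues carried their defining transcripts. Levels are in CPM, counts per 1000000 of library total after TMM scaling, a correction for composition, and CPM values are not compared between genes because gene lengths were not used. The summed level of 9 myofibre markers was 79604 to 150673 CPM in SM and 1349 to 1994 in LV, and that of 8 cardiomyocyte markers was 3.04 to 20.8 CPM in SM and 23588 to 33725 in LV. Total counts ran from 19477976 to 39401323 per SM library, 54645657 to 75758777 per LV library and 530397 to 9988027 per MT library. In SM, libraries of rats numbered 2 to 16 (14 rats) and 17 to 32 (16 rats) differed in 1762 of 13570 genes tested, and no label says what the numbering marks. In bulk tissue, fewer cells of a type and less RNA per cell cannot be told apart.

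Whether training altered junction transcripts was asked first in SM. None of the 10 genes changed by the threshold used throughout, an adjusted p under 0.05 in edgeR's quasi-likelihood test with Benjamini-Hochberg adjustment over all genes. In the same comparison 28 of 13570 genes passed, which is 0.206% (0.184% higher in ExT and 0.0221% lower). Colq, Chrnb1 and Lrp4 had the lowest p-values, each with a higher mean in ExT. An unadjusted p under 0.05 was found for these 3 of 10 genes and for 13.7% of all genes tested. DESeq2 called 0 of the 10 as well, with 133 genes called in all.

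Colq, which anchors the esterase in the synaptic cleft, spanned 2.66 to 20.8 CPM in SM_Sed with a median of 7.65, and 6.13 to 24.0 CPM in SM_ExT with a median of 10.9. The arms overlapped widely, although the lowest sedentary rats lay below every trained rat. The fitted log2 difference, ExT minus Sed, was 0.60 (SE 0.25, unadjusted p = 0.0246, adjusted p = 0.299, edgeR). Lrp4, the agrin receptor, spanned 21.1 to 31.6 CPM in SM_Sed (median 27.7) and 22.96 to 36.5 in SM_ExT (median 30.7), a difference of 0.20 (SE 0.064, unadjusted p = 0.00432, adjusted p = 0.175, edgeR). Most trained rats lay in the upper part of the sedentary range or above it. Chrnb1, the beta subunit of the receptor, spanned 22.1 to 33.7 CPM in SM_Sed (median 27.2) and 21.1 to 43.4 in SM_ExT (median 30.2), with a difference of 0.21 (SE 0.076, unadjusted p = 0.00865, adjusted p = 0.214, edgeR).

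The other receptor subunits varied far more among rats than between arms. Chrna1, which carries the main acetylcholine-binding face, spanned 1.71 to 10.9 CPM in SM_Sed (median 4.16) and 3.19 to 10.6 in SM_ExT (median 6.31), a log2 difference of 0.35 (SE 0.22, adjusted p = 0.494, edgeR). Chrne, the adult-type subunit, spanned 1.10 to 10.0 CPM in SM_Sed (median 4.70) and 2.49 to 11.2 in SM_ExT (median 5.85), a difference of 0.32 (SE 0.28). Chrnd, the delta subunit, spanned 4.01 to 17.9 CPM in SM_Sed (median 10.4) and 2.91 to 20.2 in SM_ExT (median 11.3), a difference of 0.05 (SE 0.24, 95% interval -0.43 to 0.54). For these 3 subunits the arms overlapped widely, although for Chrna1 and Chrne the lowest sedentary rats lay below every trained rat. The interval for Chrnd leaves room for changes in either direction.

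Musk, Rapsn, Dok7 and Ache had small differences of the opposite sign, none past the threshold. The log2 difference was -0.15 (SE 0.12) for Musk, -0.09 (SE 0.073) for Rapsn, -0.09 (SE 0.076) for Dok7 and -0.16 (SE 0.099) for Ache. The 95% intervals of Rapsn and Dok7 ran from -0.24 to 0.06 and from -0.24 to 0.07. Ache spanned 38.5 to 84.8 CPM in SM_Sed (median 55.3) and 42.5 to 68.2 in SM_ExT (median 53.0), so that the trained arm lay inside the sedentary one. Over the 10 genes, the median difference was 0.12 and 6 lay above 0, against a median of -0.01 over all genes tested.

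**Figure D1:**
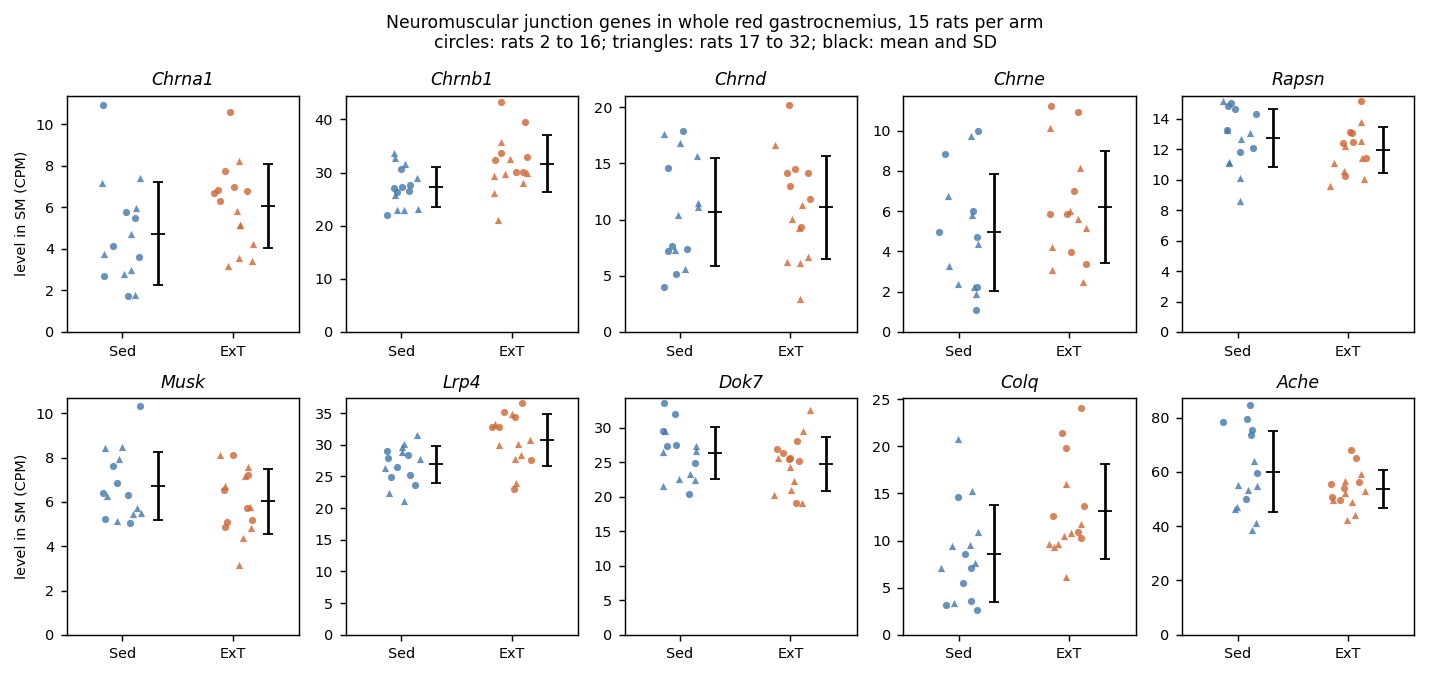
Level of each gene in CPM (vertical axes, from 0) in the 30 SM libraries by arm; circles are rats 2 to 16, triangles rats 17 to 32, and black marks show the mean and SD of 15 rats. Chrna1, Chrnd, Chrne and Colq spread over 6.37-fold to 10.2-fold ranges, while Chrnb1, Rapsn, Dok7 and Lrp4 stay within 2.06-fold.

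The training difference was also computed within each range of rat numbers. Among rats 2 to 16, Chrnb1 was called higher in ExT, by 0.37 (SE 0.086, adjusted p = 0.0301, edgeR), the 1 member among 396 of 13423 genes called there, or 2.95% (2.16% higher). In those rats Chrnb1 spanned 22.1 to 30.7 CPM in SM_Sed and 30.1 to 43.4 in SM_ExT. Colq spanned 2.66 to 14.6 CPM in the same sedentary rats and 10.3 to 24.0 in the trained ones, with a difference of 1.31 (SE 0.37, adjusted p = 0.0683, edgeR) that missed the threshold. For each gene 1 sedentary rat reached into the trained range, and the other sedentary rats lay below it. Among rats 17 to 32, 0 members and 1 of 13662 genes were called (0.00732%), and the differences of Chrnb1 and Colq were 0.07 (SE 0.10) and 0.01 (SE 0.28). The change of the training difference between the 2 ranges was tested as an interaction and called 0 genes (0%), members included. The interaction was -1.30 for Colq (SE 0.47, unadjusted p = 0.00989, adjusted p = 0.2598, edgeR) and -1.06 for Chrnd (SE 0.45, unadjusted p = 0.0246, adjusted p = 0.304, edgeR), negative meaning a lower training difference in rats 17 to 32. It was 0.35 for Ache (SE 0.15, unadjusted p = 0.0244, adjusted p = 0.304, edgeR) and -0.30 for Chrnb1 (SE 0.14, unadjusted p = 0.044, adjusted p = 0.363, edgeR). How many of all genes had an unadjusted p under 0.05 for the interaction was not counted. The training difference of Ache was -0.32 (SE 0.11, adjusted p = 0.0863, edgeR) in rats 2 to 16 and 0.02 (SE 0.094) in rats 17 to 32. Between the ranges themselves, with the arm as a term, 1 of the 10 genes was called. Ache was lower in rats 17 to 32, with a log2 difference of -0.34 (SE 0.079, adjusted p = 0.00354, edgeR), beside 6.99% of all genes called lower and 12.98% called in either direction.

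None of the other listed genes passed the test for training in SM. Of 23 further synaptic muscle genes tested, 0 were called and 3 had an unadjusted p under 0.05, with a median difference of 0.05. The most abundant were Syne1, which anchors synaptic nuclei, at -0.01 (SE 0.053), and the sodium channel Scn4a at -0.07 (SE 0.066). Agrn, the gene of agrin, had a difference of 0.17 (SE 0.066, unadjusted p = 0.0149, adjusted p = 0.254, edgeR) and is named because it encodes the Lrp4 ligand, after its value was seen. Among 12 genes known to respond to denervation, 0 were called and 2 had an unadjusted p under 0.05; the E3 ligases Trim63 and Fbxo32, the most abundant, differed by -0.02 (SE 0.076) and 0.12 (SE 0.11). Of the 17 listed genes for acetylcholine synthesis, transport and other receptors, 3 were abundant enough in SM to test and 0 were called. Prima1, the membrane anchor of acetylcholinesterase, averaged 3.10 ± 0.69 CPM in SM_Sed and 2.28 ± 0.94 in SM_ExT (SD, n = 15 each), a log2 difference of -0.44 (SE 0.17, adjusted p = 0.2501, edgeR). The neuronal-type subunit Chrna4 averaged 0.64 ± 0.37 and 0.95 ± 0.42 CPM, a difference of 0.56 (SE 0.26, adjusted p = 0.326, edgeR).

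The muscle pieces differed among rats in markers of fibre type and of other cells, with none of the listed markers called between arms. The log2 ratio of Tnni1 to Tnni2, slow over fast troponin I, averaged -2.73 ± 1.13 in SM_Sed and -1.996 ± 0.80 in SM_ExT (SD, n = 15 each). Of 7 slow-fibre markers tested, 7 had a difference above 0 and 0 had an unadjusted p under 0.05, with a median of 0.34. Of 6 fast-fibre markers tested, 0 had a difference above 0 and 5 had an unadjusted p under 0.05, with a median of -0.30. The sum of 10 Schwann cell markers spanned 24.8 to 168.5 CPM in SM_Sed (median 54.3) and 46.6 to 206.5 in SM_ExT (median 112.7). Of 9 such markers tested, 0 were called, 9 had a difference above 0 and 4 had an unadjusted p under 0.05, with Pmp22 at 0.37 (SE 0.16). The 10 axon markers summed to 4.35 to 7.99 CPM over both arms, with 0 of the 4 tested called, 1 of 4 above 0 and a median difference of -0.20; the neurofilament gene Nefh and peripherin, Prph, the most abundant, differed by 0.27 (SE 0.14) and -0.09 (SE 0.21). The 7 endothelial markers summed to 351.9 to 707 CPM in SM_Sed (median 522) and 489 to 714 in SM_ExT (median 588); 0 were called, 7 of 7 had a difference above 0 and 6 had an unadjusted p under 0.05, with a median of 0.20, the most abundant being Cdh5 at 0.24 (SE 0.10) and Vwf at 0.20 (SE 0.096). The part of these cells in the differences of Colq, Chrnb1 and Lrp4 was not tested. No listed Schwann, axon or endothelial marker was at 0 in every SM library. The axon markers Snap25 and Syt1 nevertheless had medians of 0 and maxima of 0.052 and 0.067 CPM. These maxima lie below 0.0761 CPM, the lowest level that 3 counts reach in an SM library. With the troponin ratio as a covariate the training differences were 0.26 (SE 0.14) for Colq, 0.10 (SE 0.066) for Chrnb1, 0.08 (SE 0.17) for Chrna1 and -0.38 (SE 0.11) for Chrnd, with 0 of 10 genes called. The ratio itself averaged higher in ExT, so a fit with it as a covariate may also remove part of a training difference.

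Junction genes did not vary as 1 block across the 30 SM libraries. Pearson's r of log2 CPM was computed for all 45 pairs after subtracting the mean of each arm within each range of rat numbers. It was tested by permuting libraries 100000 times, so that no p can fall below 1e-05. Libraries were permuted over all groups rather than within them, which can make p-values slightly too small, above all near the threshold. After Benjamini-Hochberg adjustment over the 45 pairs, 16 passed, 13 positive and 3 negative, and 13 of these also passed by Spearman's rho. The same sign was seen in both ranges of rat numbers for 15 of the 16; Chrnb1 with Lrp4 was the exception. Values were computed from libraries that share depth and scaling, and a correlation says nothing of control. The share of other genes or gene pairs that would pass the same test was not computed, here or for the correlations below. The counts of pairs therefore do not show that junction genes vary together more than other genes.

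The first group held Chrnd, Colq, Chrna1 and Chrnb1. Chrnd and Colq had r = 0.80 (rho 0.78, adjusted permutation p = 0.000225), 0.77 without the 2 libraries farthest from the median of Chrnd, and 0.82 and 0.80 within rats 2 to 16 and 17 to 32. Chrna1 and Chrnd had r = 0.77 (rho 0.76, adjusted permutation p = 0.000225, 0.73 without 2 libraries, 0.86 and 0.70 within ranges). Chrna1 and Colq had r = 0.72 (rho 0.69, 0.63 without 2 libraries) and Chrnb1 and Chrnd r = 0.71 (rho 0.68, 0.68 without 2 libraries), each with an adjusted permutation p of 0.000225. Rats rich in RNA of the delta subunit were thus rich in that of the collagen tail and of the alpha and beta subunits.

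The second group held Chrne, Musk and again Chrna1. Chrna1 and Chrne had r = 0.68 (rho 0.65, adjusted permutation p = 0.00036, 0.64 without 2 libraries, 0.70 and 0.67 within ranges). Chrne and Musk had r = 0.63 (rho 0.69, adjusted permutation p = 0.00172, 0.67 without 2 libraries, 0.60 and 0.67 within ranges). Chrna1 and Musk had r = 0.53 (rho 0.64, adjusted permutation p = 0.013). Between the groups, Chrnd and Chrne had r = 0.28 (rho 0.30, adjusted permutation p = 0.201), and Chrne and Colq r = 0.27 (rho 0.22, adjusted permutation p = 0.215), although delta and epsilon are subunits of 1 receptor. Neither of these pairs passed, which does not show that they are unrelated.

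Ache went the other way from its own anchor. Ache and Colq had r = -0.53 (rho -0.41, adjusted permutation p = 0.0142, -0.39 without 2 libraries, -0.52 and -0.54 within ranges); by rho the adjusted p was 0.0695, so this pair passed by r alone. Ache and Chrnd had r = -0.51 (rho -0.52, adjusted permutation p = 0.0161), and Ache and Lrp4 had r = -0.43 (rho -0.48, adjusted permutation p = 0.0482). Ache and Dok7 had r = 0.47 (rho 0.47, adjusted permutation p = 0.0309), falling to 0.30 without 2 libraries. Rapsn and Dok7, the cytoplasmic partners of receptor and kinase, had r = 0.52 (rho 0.48, adjusted permutation p = 0.0142, 0.51 without 2 libraries). The remaining pairs past the threshold were Chrna1 with Chrnb1 (r = 0.54, rho 0.60), Chrnb1 with Colq (r = 0.45, rho 0.51), Chrnb1 with Lrp4 (r = 0.47, rho 0.39) and Chrnd with Lrp4 (r = 0.45, rho 0.31), with adjusted permutation p-values from 0.013 to 0.0367. Both pairs with Lrp4 missed the threshold by rho, and Chrnd with Lrp4 had 0.0024 within rats 2 to 16 and 0.79 within rats 17 to 32.

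Both groups followed a different measure of the muscle piece. With the log2 ratio of Tnni1 to Tnni2, r was 0.93 for Chrnd (rho 0.92, 0.91 without 2 libraries, 0.92 and 0.94 within ranges), 0.85 for Colq (rho 0.83), 0.74 for Chrna1 (rho 0.66) and 0.67 for Chrnb1 (rho 0.66), the largest adjusted permutation p of these 4 over 10 tests being 0.000175. Ache had r = -0.61 (rho -0.60, adjusted permutation p = 0.00068), Dok7 -0.51 (rho -0.50, adjusted permutation p = 0.00703) and Rapsn -0.39 (rho -0.44, adjusted permutation p = 0.0409). Lrp4 had r = 0.43 (rho 0.36, adjusted permutation p = 0.0251), with 0.05 within rats 2 to 16 and 0.77 within rats 17 to 32, and did not pass by rho. Chrne and Musk had r = 0.25 (rho 0.19, adjusted permutation p = 0.192) and 0.24 (rho 0.26, adjusted permutation p = 0.209). Slow-rich pieces thus had more Chrnd and Colq RNA and less Ache RNA.

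With the log2 sum of the Schwann cell markers, r was 0.87 for Chrne (rho 0.87, adjusted permutation p = 5e-05, 0.85 without 2 libraries, 0.82 and 0.92 within ranges), 0.72 for Musk (rho 0.75, adjusted permutation p = 6.67e-05) and 0.71 for Chrna1 (rho 0.74, adjusted permutation p = 5e-05). The other 7 genes did not pass by r, and of these Chrnb1 (r = 0.39) passed by rho (0.49, adjusted permutation p = 0.0172). Chrnd had 0.33 (rho 0.39, adjusted permutation p = 0.118) and Colq 0.24 (rho 0.24, adjusted permutation p = 0.286). The troponin ratio and the Schwann sum had r = 0.31 with each other (rho 0.30, permutation p = 0.0966, a single test). The part that nerve content plays in the Chrne, Musk and Chrna1 values was not tested. Both measures were added after the data were seen.

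**Figure D2:**
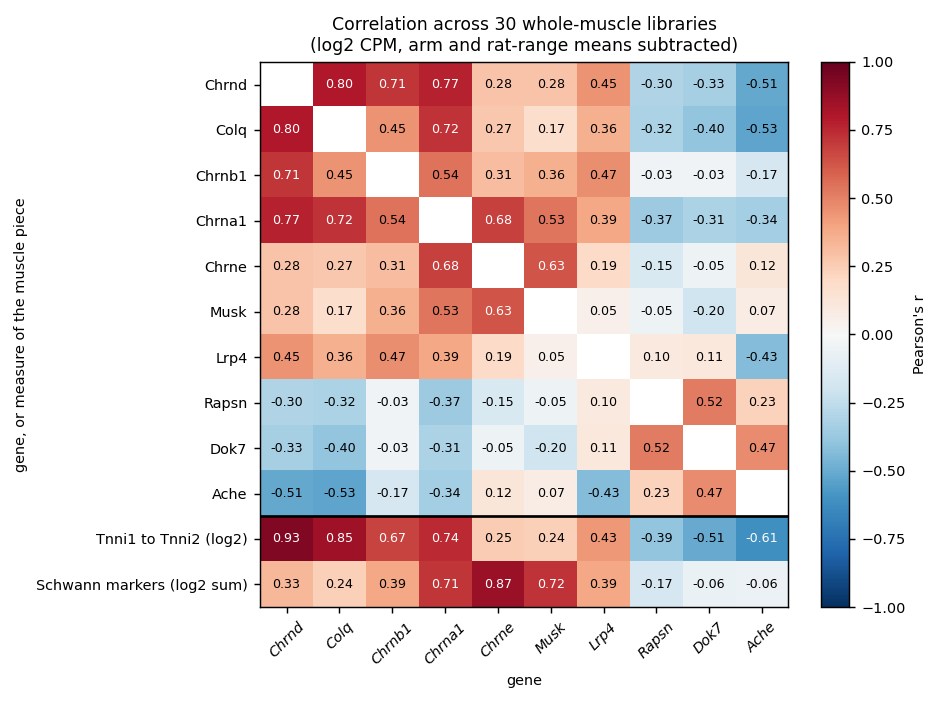
Pearson's r between the 10 genes across 30 SM libraries (upper rows), and of each gene with the troponin ratio and the Schwann marker sum (rows below the line), from -1 in blue to 1 in red. Chrnd reaches 0.93 with the troponin ratio and 0.33 with the Schwann sum, whereas Chrne has 0.25 and 0.87.

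The spread behind these patterns exceeded counting error. Over the 30 SM libraries the coefficient of variation was 51.4% for Chrne, 50.6% for Colq, 43.1% for Chrna1 and 42.3% for Chrnd, against counting errors of 7.89%, 5.70%, 8.06% and 5.71% at their mean counts. It was 13.9% to 17.01% for Chrnb1, Rapsn, Dok7 and Lrp4, 20.9% for Ache and 23.9% for Musk. The lowest Chrne library, SM_Sed rat 4, held 27 counts and the highest by CPM, SM_ExT rat 9, 256.

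The genes whose pattern across the 30 SM libraries was most like each member were found among 11450 named genes averaging 1 CPM or more. For Chrnd they were the slow-fibre genes Myh7 (r = 0.93), Tnnc1 (0.93) and Myl2 (0.93), which encode slow myosin heavy chain, slow troponin C and slow regulatory light chain. For Chrne they were Kank4 (0.94), Gjc3 (0.90), a connexin gene of myelinating glia, and Etv4 (0.88), an Ets-family factor. Musk had Etv5 (0.76), another Ets factor, first. Chrna1 had Sbk2 (0.86), Tenm2 (0.85) and the slow light chain Myl3 (0.84), and Colq had Prox1 (0.88), a homeobox factor known in slow fibres, first. Ache had the fast-muscle glycolytic gene Pgam2 (0.83) second, after Ube2d1 (0.83). For the others the closest genes were Hspb6 (0.84) for Chrnb1, Ensa (0.75) for Rapsn, Tysnd1 (0.87) for Dok7 and Kcnn1 (0.77) for Lrp4. These are the highest of many values and carry no test.

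Myh7 spanned 2585 to 16508 CPM over the SM libraries, and SM_ExT rat 22, the lowest library for Chrnd, had 2602 CPM of it, while SM_ExT rat 10, the highest for Chrnd, had 16508. Etv4 spanned 0.57 to 4.56 CPM, and the lowest Chrne library, SM_Sed rat 4, was also the lowest for Etv4. Trained and sedentary rats overlapped along the band in both plots. For Chrnd, trained rats tended to lie lower at a similar level of Myh7, and its training difference with the troponin ratio as a covariate was also below 0.

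**Figure D3:**
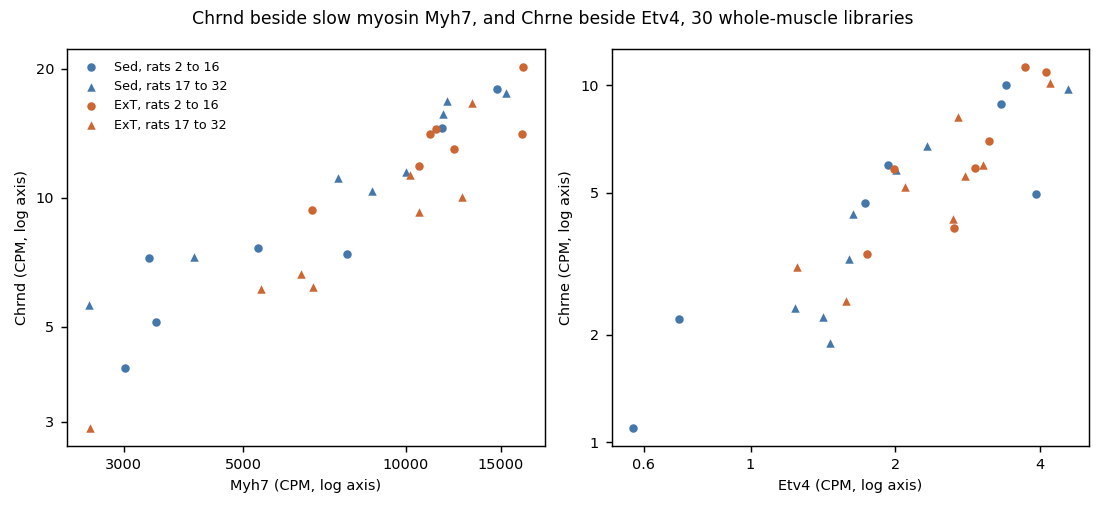
Chrnd against Myh7 (left) and Chrne against Etv4 (right) in CPM, both axes log-scaled, 1 point per SM library, coloured by arm with shape for the range of rat numbers. Points rise from 2.91 CPM of Chrnd at 2602 CPM of Myh7 to 20.2 at 16508, and from 1.10 CPM of Chrne at 0.57 CPM of Etv4. The arms overlap along each band, with trained rats tending lower for Chrnd.

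The heart, which has no neuromuscular junctions, was the comparison tissue. LV held far less RNA of the receptor subunits and of Ache than SM of the same rats, and moderately less of Musk, Rapsn, Colq and Dok7, while for Lrp4 the fitted log2 difference was -0.04 in Sed and -0.20 in ExT rats. In Sed rats 9 of the 10 genes were called lower in LV and 0 higher, beside 38.6% of 14367 genes called lower, 40.0% called higher and 78.7% in either direction. In ExT rats all 10 were called lower, beside 39.5% of 14338 genes lower, 39.7% higher and 79.3% in either direction. At an unadjusted p under 0.05 the members counted 9 and 10, beside 80.0% and 80.2% of genes. The median log2 difference of the members, LV minus SM, was -2.43 in Sed and -2.25 in ExT, against 0.04 and 0.01 over all genes tested. Kit and RNA input differed between these tissues (100 ng with an Illumina kit for LV, 50 ng with a Zymo kit for SM) and cannot be told apart from tissue.

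For the receptor, levels scaled over both tissues together were as follows. Chrnb1 spanned 24.5 to 38.2 CPM in SM (median 31.8) and 0.24 to 0.66 in LV (median 0.37), a log2 difference of -6.35 in Sed rats (SE 0.13, adjusted p = 6.77e-19, edgeR, n = 7 per tissue), or 81.7-fold lower. Chrne spanned 2.02 to 10.9 CPM in SM and 0.14 to 0.42 in LV, 20.3-fold lower (-4.35, SE 0.41, adjusted p = 9.65e-08, edgeR). Chrna1 spanned 3.004 to 8.78 CPM in SM and 0.053 to 0.46 in LV, 19.9-fold lower (-4.31, SE 0.27, adjusted p = 2.69e-11, edgeR). All LV libraries lay below all SM libraries for these 3 subunits. For these and the genes below, the share of all genes whose tissues do not overlap was not computed. Chrna1 rested on 4 to 34 counts per LV library, Chrne on 10 to 31 and Chrnb1 on 18 to 45, where 3 counts were taken as the smallest level a library can show.

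Chrnd and Ache RNA was also lower in heart. Chrnd spanned 6.55 to 17.9 CPM in SM (median 12.0) and 0.69 to 2.53 in LV (median 1.02), 10.0-fold lower in Sed rats (-3.33, SE 0.27, adjusted p = 2.34e-08, edgeR), on 43 to 187 counts per LV library. Ache spanned 41.0 to 78.8 CPM in SM (median 56.4) and 2.42 to 6.76 in LV (median 4.17), 13.02-fold lower (-3.70, SE 0.22, adjusted p = 5.19e-10, edgeR). For both, the tissues did not overlap.

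The signalling genes were closer. Musk spanned 3.37 to 11.1 CPM in SM and 2.05 to 2.95 in LV, without overlap, with a difference of -1.53 in Sed rats (SE 0.15, adjusted p = 9.43e-09, edgeR). Rapsn spanned 9.18 to 16.3 CPM in SM and 4.88 to 7.47 in LV, also without overlap, at -1.06 (SE 0.11, adjusted p = 3.78e-08, edgeR). Colq and Dok7 overlapped between tissues and were lower in LV in 13 of 14 rats, at -0.69 (SE 0.25, adjusted p = 0.0206, edgeR) and -0.40 (SE 0.099, adjusted p = 0.00109, edgeR) in Sed rats. Lrp4, which has roles outside muscle synapses, spanned 22.8 to 37.2 CPM in SM and 23.4 to 34.8 in LV and was lower in LV in 10 of 14 rats. Its difference was -0.04 in Sed (SE 0.084, adjusted p = 0.704, 95% interval -0.21 to 0.14, edgeR) and -0.20 in ExT (SE 0.082, adjusted p = 0.029, edgeR), the latter with an adjusted p of 0.0833 when no genes were filtered for low counts.

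**Figure D4:**
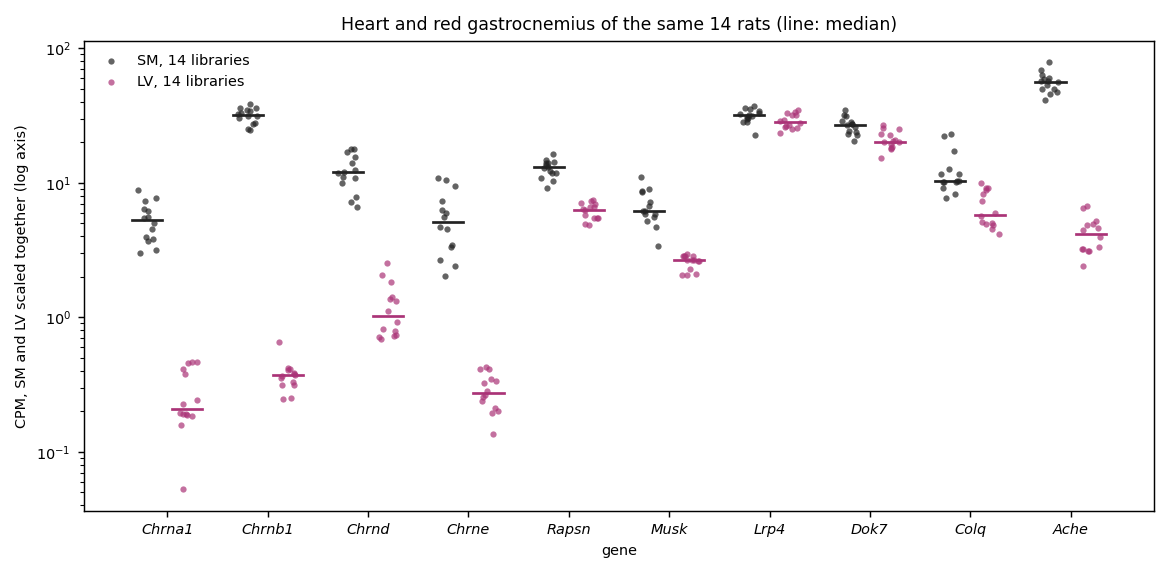
Level of each gene in CPM on a log axis, scaled over SM (black) and LV (purple) of the same 14 rats, 1 point per library, lines at the medians. Chrnb1 falls from a median of 31.8 in SM to 0.37 in LV, while Lrp4 has 31.9 and 28.2.

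The other lists were mixed. Of 23 other synaptic muscle genes tested in Sed rats, 11 were higher and 10 lower in LV. Scn4a, the skeletal muscle sodium channel, was 358 ± 58.2 CPM in SM and 1.32 ± 0.51 in LV (SD, n = 7 each), and Agrn was 42.5 ± 4.79 and 65.2 ± 2.69; both are named after their values were seen. Of 12 denervation-responsive genes 8 were lower and 2 higher. Of 5 acetylcholine-handling genes tested, 2 were higher and 2 lower in LV. Chrm2, the muscarinic receptor of heart, was 178 ± 14.1 CPM in LV, with 0.031 ± 0.082 in SM. Bche, butyrylcholinesterase, was 37.1 ± 3.11 and 0.61 ± 0.26 CPM, and both are again named after their values were seen.

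In LV, none of the 10 genes passed the test for training. Of 14488 genes tested, 0 were called (0%) by edgeR and 0 by DESeq2, and 855 (5.90%) had an unadjusted p under 0.05, with 0 members among them. The log2 difference, ExT minus Sed, ran from -0.23 (SE 0.32) for Chrnd to 0.22 (SE 0.38) for Chrna1, and its median was 0.05. Dok7 spanned 16.5 to 26.9 CPM in LV_Sed (median 21.1) and 19.6 to 28.6 in LV_ExT (median 22.02), and Lrp4 27.6 to 37.3 (median 30.5) and 24.9 to 37.0 (median 34.0), overlapping throughout. Of the other lists in LV, 0 of 24 synaptic, 0 of 8 denervation-responsive and 0 of 4 acetylcholine-handling genes were called. Among the most abundant of these were Syne1 at 0.04 (SE 0.066) and the laminin gene Lamb2 at 0.16 (SE 0.072), Fbxo32 at 0.10 (SE 0.083), and Chrm2 at -0.0006 (SE 0.062) and Bche at -0.01 (SE 0.061). The training difference in LV minus that in SM of the same 14 rats was called for 0 of 15049 genes (0%; 687, or 4.57%, at an unadjusted p under 0.05) and for 0 members, of which 0 had an unadjusted p under 0.05. It ran from -0.40 for Colq (SE 0.36) to 0.36 for Musk (SE 0.22). DESeq2 called 3 genes, none a member.

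**Figure D5:**
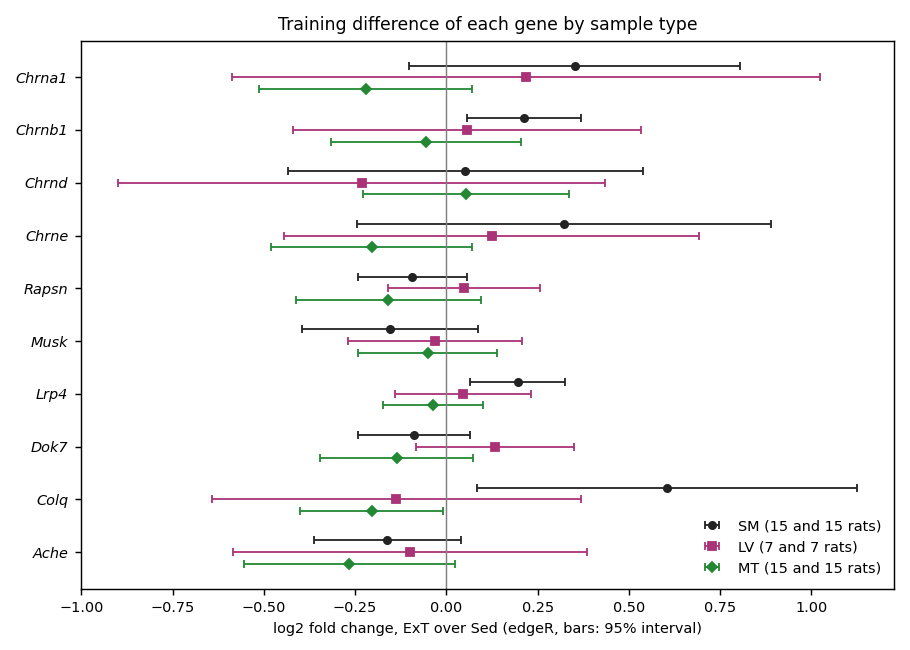
Log2 fold change of each gene, ExT over Sed, with its 95% interval from edgeR, in SM, LV and MT. Intervals lie above 0 for Chrnb1, Lrp4 and Colq in SM and below 0 for Colq in MT, none with an adjusted p under 0.05.

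Across the 14 LV libraries, with arm means subtracted, 6 of 45 pairs passed. Chrnd with Colq, Chrnd with Ache and Colq with Ache had also passed in SM, the first with the same sign and both pairs with Ache with the opposite one. Colq and Ache had r = 0.86 (rho 0.85, adjusted permutation p = 0.00292, 0.84 without 2 libraries), against -0.53 in SM; differences between the tissues' values were not tested. Chrnd had r = 0.77 with Colq (rho 0.83, adjusted permutation p = 0.0156, 0.65 without 2 libraries) and 0.75 with Ache (rho 0.79, adjusted permutation p = 0.0189, 0.53 without 2 libraries). Rapsn had r = -0.88 with Ache (rho -0.82, adjusted permutation p = 0.0009, -0.79 without 2 libraries) and -0.78 with Colq (rho -0.74, adjusted permutation p = 0.0156, -0.65 without 2 libraries). Musk and Ache had r = 0.70 (rho 0.61, adjusted permutation p = 0.0446, 0.54 without 2 libraries) and did not pass by rho. Within LV_Sed, rat 16 was the lowest for Chrnd, Colq, Ache and Musk and the highest for Rapsn. Rat 29 was the opposite extreme for each of these genes. The LV gene most like Chrnd among 11568 was Chrm2 (r = 0.93), and those most like Colq and Ache were Rfx2 (0.94) and Gpr63 (0.94). Only 2 of these rats were numbered 2 to 16, too few for values within ranges.

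The mitochondrial preparations were the least informative for these genes. The member with the fewest counts, Chrna1, had 6 to 33 per MT library, and the one with the most, Lrp4, 50 to 182. Markers of other cell types had counts as well. In MT libraries 8 cardiomyocyte markers summed to 247 to 344 CPM, 10 axon markers to 106 to 153 and 9 myofibre markers to 466.2 to 1544. In SM, the source muscle, the cardiomyocyte markers summed to 3.04 to 20.8 CPM and the axon markers to 4.35 to 7.99. Against SM in Sed rats, 8 of 8 cardiomyocyte, 10 of 10 axon and 17 of 17 acetylcholine-handling genes were called higher in MT, beside 61.7% of all genes. Where these counts came from, and their part in the values below, was not tested. None of the 10 genes passed the test for training in MT, with 0 of 19281 genes called (0%) by edgeR and 0 by DESeq2. Colq had the lowest p, at -0.20 (SE 0.099, unadjusted p = 0.0415, adjusted p = 0.9997, edgeR), the 1 member with an unadjusted p under 0.05, beside 4.73% of all genes.

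Against SM, Ache and Chrnb1 were lower in MT in both arms, Ache by -3.30 in Sed and -3.38 in ExT (SE 0.16 and 0.10) and Chrnb1 by -2.07 and -2.31 (SE 0.095 and 0.12). In Sed rats 6 of the 10 genes were called, 5 lower and Musk higher at 0.78 (SE 0.11), beside 94.8% of 22842 genes called, 33.1% of them lower and 61.7% higher as shares of those tested. In ExT rats 9 were called, 8 lower and Musk higher at 0.91 (SE 0.12), beside 94.3% of 21312 genes, 35.0% lower and 59.3% higher. The median of all genes tested was itself 1.81 and 1.31 above 0, and every member lay below that median. SM and MT libraries were made from 50 and 10 ng of RNA, which cannot be told apart from the preparation. With DESeq2-type size factors in edgeR, 9 were called in Sed, 4 of them higher, and 6 in ExT, 1 of them higher. Directions of Chrna1, Chrne and Lrp4 differed among the scalings and filters tried, and with the rat as a replicate block Colq in Sed became a call at 0.52 (adjusted p = 0.0268, edgeR) from 0.38 without it (adjusted p = 0.146).

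Some of these counts could include reads of neighbours. RefSeq places other genes over Chrne (C10h17orf107 and Gp1ba), Chrnb1 (Zbtb4), Ache (Ufsp1 and a long non-coding RNA), Musk (4930522L14Rikl), Lrp4 (2 long non-coding RNAs) and Colq (1). For Chrna1, Chrnd, Rapsn and Dok7 no overlap was found. Whether counting used strand is not given in the sources used here.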

How the data were processed

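Total RNA was sequenced from SM, MT and LV after ribosomal depletion. The authors deposited whole-number counts per gene in 3 tables. Per the submitters' processing notes the tools were FastQC 0.74, cutadapt 4.6, STAR 2.7.11a and HTSeq with build mRatBN7.2; their settings are not given in the sources used here. Rats were grouped by library title. Differences were tested with edgeR 4.0.16 (R 4.3.3) quasi-likelihood F-tests, with TMM scaling, filterByExpr and robust dispersions, Benjamini-Hochberg adjustment over all genes and a threshold of 0.05. DESeq2 1.42.0 was an alternative. Correlations used log2 CPM with a prior count of 2 (numpy 2.4.6, scipy 1.17.1). Code was tested on simulated data.

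The genes and lists were chosen with earlier results of these data known. All 10 members are named in every comparison. From the other lists, up to 4 called genes, or the 2 most abundant where none was called, are named, besides those said to be chosen later, and 2 genes that this rule would name are not reported here; the 3 genes most like a member are ranked by r. The correlations with the troponin ratio and Schwann markers, those in LV, and the tests of the range of rat numbers were added after seeing the data. A rat number marks the same animal in SM, MT and LV per the labels, so those libraries are paired, although deviations of same-numbered libraries correlated weakly (median r from -0.02 to 0.022). SM libraries at 3 counts reach 0.0761 to 0.154 CPM, LV libraries 0.0396 to 0.0549 and MT libraries 0.30 to 5.66; counting errors and floors cover counting alone. Listed genes not matched by symbol were Chrng, Slc18a3, Myh1 and Atp2a1.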

Additional observations from a re-analysis of the deposited data

Results flagged for a closer look

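In 20 groups of 7 LV libraries, 1 per gene and arm, the highest and lowest libraries were compared with the rest by Dixon's ratio of gap to range, and chance alone marks about 1 group in 20. There were 3 libraries beyond the 95% limit of 0.568. Chrnb1 was 0.708 CPM in LV_ExT rat 28, where the other 6 libraries spanned 0.271 to 0.416. Chrnd was 2.74 CPM in LV_Sed rat 29, where the others spanned 0.738 to 1.54. Lrp4 was 37.3 CPM in LV_Sed rat 19, where the others spanned 27.6 to 31.5. Without LV_ExT rat 28 the training difference of Chrnb1 in LV was -0.13 instead of 0.06, and without LV_Sed rat 29 that of Chrnd was 0.01 instead of -0.23, neither past the threshold.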

How the results depend on the processing

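The count of SM genes called for training was the least stable value. It was 28 (25 higher), and became 133 with DESeq2 (101 higher, 32 lower), 396 in rats 2 to 16 (290 higher, with 1 member called), 1 in rats 17 to 32, 45 with the range of rat numbers as a term and 7 with the troponin ratio as a covariate. Leaving out 1 rat gave 12 to 100 genes, lowest without SM_Sed rat 4, 8 or 12 or SM_ExT rat 27 and highest without SM_Sed rat 23, with 0 members each time. Signs in SM turned for Chrnd (-0.47) and Ache (0.0207) in rats 17 to 32 and for Chrnd (-0.38) and Dok7 (0.00199) with the covariate, and Chrnd was -0.04 without SM_ExT rat 10. In LV training, leaving out 1 rat gave 0 genes and 0 members each time. In MT training, Chrna1 was 0.12 in rats 2 to 16, and Chrnb1 was 0.0157 and Chrnd -0.0465 in rats 17 to 32. DESeq2 called 3 genes in the comparison of training differences between LV and SM. In MT against SM, Sed, Lrp4 was 0.31 with RLE size factors and 0.30 with DESeq2, and Chrna1 was -0.14 without a filter and -0.0345 without mitochondrial-genome genes; in ExT, Chrne was 0.0806 and 0.063 and Lrp4 0.0766 and 0.0594 with RLE and DESeq2. With DESeq2 the genes called in MT against SM were 21622 higher and 6569 lower in Sed and 21629 higher and 6617 lower in ExT, in place of 14086 and 7562 and of 12631 and 7461, and its median over all genes in LV against SM was -0.22 in Sed and -0.20 in ExT, in place of 0.04 and 0.01, with the receptor subunits and Ache lower in LV under each scaling. The cause was not tested. Sedentary and trained rats are different animals, so training has no pairs. With the rat as a replicate block, LV against SM kept 9 member calls in Sed (11174 genes) and 10 in ExT (11224 genes), and the block changed no member call other than Colq in MT against SM, Sed (0.52). Without subtracting group means, Chrna1 with Musk (0.39), Chrnd with Ache (-0.40) and Lrp4 with Ache (-0.38) missed the threshold. Of the values of single members and pairs recomputed, 451 kept their sign and side of the threshold, 15 turned sign, 8 came to pass it and 8 no longer did. Depth limits Chrna1, Chrnb1 and Chrne in LV and all members in MT.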
